A study of Mus musculus with 12 samples.

Results

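The genes described here are 9 marker genes of the oligodendrocyte lineage among the 22609 genes counted in polyA RNA of differentiating mouse neural stem cells. They were taken by name, as known markers: Olig1, Olig2, Nkx2-2, Pdgfra and Cspg4 for precursors, Gpr17 and Bcas1 for committed precursors, and Cnp and Mog for myelin. Each of the 9 had 1 row in the count tables and 1 in the FPKM table of 34993 genes. The cells were adherent neural stem (ANS) cells, a cultured line from the mouse embryonic brain at day E14.5, differentiated in vitro towards neurons that make GABA, and the names of the FPKM columns mark them wt. T0 (3 libraries) was proliferating cells in growth medium with 20 ng/ml FGF2 and 20 ng/ml EGF, and T1 (3 libraries) was cells 2 days after the change to medium D1 with 10 ng/ml FGF2 and 2 ng/ml EGF. T2 (4 libraries) and T3 (2 libraries) were cells 2 and 10 days after the change to medium B, which carried 10 ng/ml FGF2 and 20 ng/ml BDNF in place of EGF. FGF2 was present at all 4 time points, no time point had a parallel culture kept in growth medium, and the sources do not say how many separate derivations of the line were used. T3 was described as the stage of overt differentiation with cells positive for GAD, the enzyme that makes GABA.

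Oligodendrocytes are the myelinating glia of the central nervous system and arise from dividing precursors. The precursors express the transcription factors Olig1 and Olig2 and respond to PDGF-AA through the receptor encoded by Pdgfra. As they commit, they lose that receptor, pass through a transient stage marked by the orphan receptor Gpr17 and the myelin-associated protein Bcas1, and then switch on enzymes and structural proteins of myelin such as Cnp and Mog. Olig1 and Olig2 are not private to this lineage, since neural stem cells grown with FGF2 and EGF and early progenitors of inhibitory neurons can express them too.

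Library totals over named genes ran from 8910724 to 16631614 counts. The stem cell markers Sox2, Nes and Vim were high in all 12 libraries, with CPM of 186 to 455, 850 to 1814 and 2004 to 3781 (CPM, counts scaled to a common library size after TMM normalization). Pairs of libraries within T1 or T2 differed by a median of 0.126 to 0.233 log2 units per gene, and the 2 T3 libraries by 0.289. T0 replicate 3 stood furthest apart: it differed from T0 replicates 1 and 2 by 0.458 and 0.452, where replicates 1 and 2 differed by 0.0893. T0 replicate 3 had 13.3% of its uniquely aligned reads in no gene, against 19.6% and 19.9% in T0 replicates 1 and 2. It had 39.0% of reads without a unique alignment, against 34.0% and 34.6%. It was lower in the summed CPM of the other precursor genes (3189 against 6156 and 6344), the other myelin genes (124 against 319 and 335) and the astrocyte markers (3013 against 5317 and 5227), but not of the other committed precursor genes (1342 against 1184 and 1157), and the neuron markers had 900 CPM against 972 and 950. The largest part of the committed precursor sum was Fyn (535 to 759 CPM at T0). Most of the neuron sum was Mtap2, the gene Map2 (879 to 921 CPM at T0). Single genes of the committed list went either way in T0 replicate 3, with Cyfip2 7.24-fold lower and Rras2 0.72 log2 units higher. Of the neuron markers, Dcx and Tubb3 had 1.76 and 10.7 CPM there, and up to 8.18 and 33.7 CPM in the other T0 libraries. Gfap, an astrocyte filament gene, had 7 counts in T0 replicate 3 and 147 and 150 CPM in the other T0 libraries. The part of these differences in the results was not tested, and the calls on the 9 genes and the counts of the gene lists against T0 are given with and without this library. The replicates are separate samples in the labels, described as biological replicates. All values are from bulk RNA, in which fewer cells of a type and less RNA per cell cannot be told apart.

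Per transcript length, the 9 genes spanned the range from among the most abundant mRNAs of these cells to not detectable. Olig1 had a mean of 807 FPKM at T0 (SD 66.9, n = 3), which ranked 74 of 34993 genes, and 1165 FPKM at T3, which ranked 31. Olig2 followed with 349 FPKM at T0 and 406 FPKM at T3. Cnp (123 FPKM at T0), Bcas1 (87.0), Gpr17 (9.86) and Pdgfra (2.15) came next, while Mog (0.126), Cspg4 (0.0413) and Nkx2-2 (listed at 0) were below 1 FPKM. This order held at T0, T1 and T2 by group means, and at T3 Gpr17 (110 FPKM) stood above Bcas1 (91.9 FPKM). Several neighbors in the order overlapped in their libraries. At T0 these were Cnp with Bcas1, Gpr17 with Pdgfra, Mog with Cspg4 and Cspg4 with Nkx2-2. Bcas1 overlapped with Gpr17 at T1, T2 and T3. Cnp with Gpr17 and Mog with Cspg4 also overlapped at T3. The stage of a gene did not set its place, since each of the precursor and myelin groups held both an abundant gene and one near the floor.

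**Figure D1:**
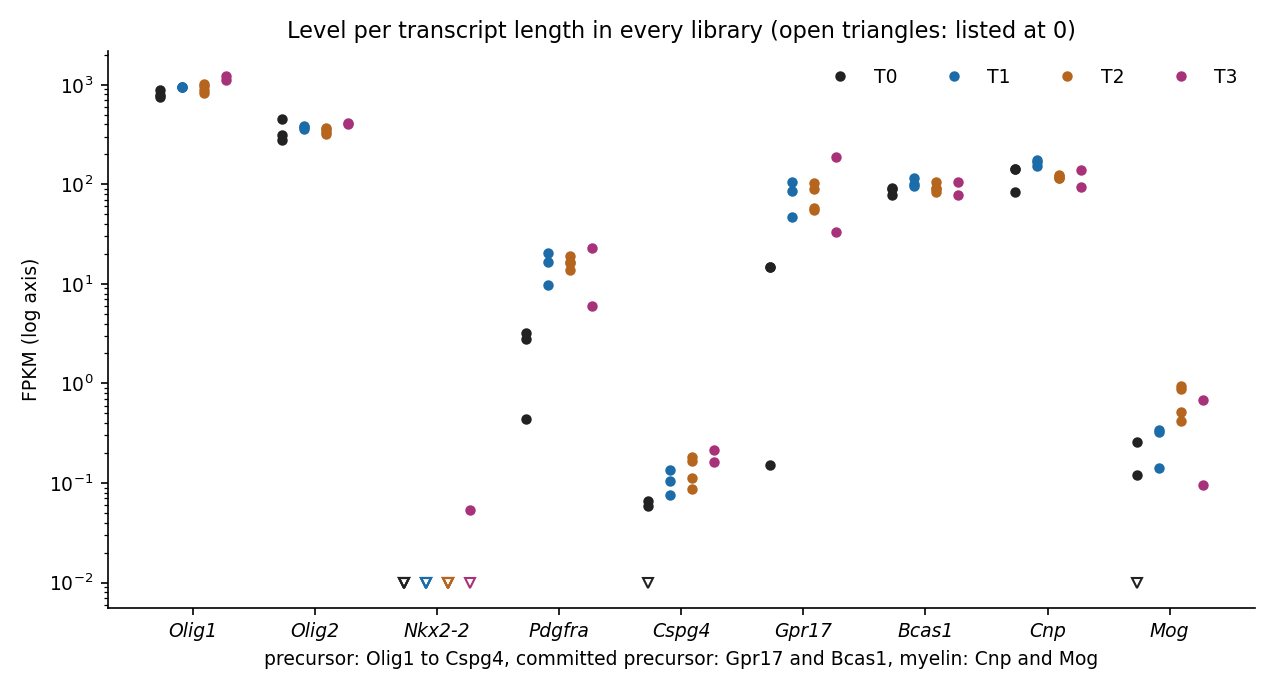
FPKM of the 9 genes in each of the 12 libraries, on a log axis, with colors for the time points and open triangles for libraries listed at 0. Olig1 and Olig2 lie at the top at every time point, Gpr17 and Pdgfra cover the widest range, and Mog, Cspg4 and Nkx2-2 stay under 1 FPKM.

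Olig1 encodes a basic helix-loop-helix factor and is a gene of 1 exon at chr16:91270014-91272184 on the plus strand (mouse build NCBIM37, as are all gene positions below). It took 30694, 31509 and 32098 counts at T0 and 31382, 36813 and 43345 at T1. Scaled, this was 2255 ± 52.7 CPM at T0, 2699 ± 54.1 at T1 (SD, n = 3 each), 2814 ± 195 at T2 (n = 4) and 3801 ± 635 at T3 (n = 2). The T0 libraries lay below those of every later time point, and T0 replicate 3 (2264 CPM) sat with its group. Olig1 was higher at T2 than at T0 by 0.34 on the log2 scale (SE 0.11, edgeR adjusted p = 0.0426). The differences at T1 (0.26, SE 0.12, adjusted p = 0.147) and T3 (0.77, SE 0.19, adjusted p = 0.0747) did not pass. The T2 call did not hold when any of T0 replicates 1 or 2 or T2 replicates 1 to 4 was left out (adjusted p = 0.0526 to 0.13), nor on FPKM values (log2 change 0.20, adjusted p = 0.294). Olig1 was past the threshold at all 3 time points when T0 replicate 3 was left out, with adjusted p of 0.0492, 0.0228 and 0.0385.

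Olig2, the related factor needed to specify the lineage, lies on the same chromosome at chr16:91225795-91228922, plus strand. Its CPM were 1029, 944 and 1351 at T0, 1168, 1286 and 1228 at T1, 1168 to 1256 at T2 and, at T3, 1399 and 1632. T0 replicate 3 was the highest T0 library and lay above every T1 and T2 library. The log2 difference from T0 was 0.14 at T1 (SE 0.17, adjusted p = 0.532), 0.14 at T2 (SE 0.14, adjusted p = 0.467) and 0.47 at T3 (SE 0.22, adjusted p = 0.239). With T0 replicate 3 left out these were 0.31, 0.31 and 0.64, with adjusted p of 0.0231, 0.0197 and 0.0402. The FPKM of Olig1 divided by that of Olig2 had a mean of 2.39 ± 0.412 at T0 and 2.87 ± 0.164 at T3, and the T0 range (1.92 to 2.68) overlapped those of T1 and T2.

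Nkx2-2, a homeodomain factor of precursors that promotes their differentiation, lies at chr2:147003282-147019979 on the minus strand. It had 0 counts in 11 libraries and 1 count in T3 replicate 4, so that no fold can be given. Cspg4, which encodes the NG2 proteoglycan of the precursor surface, lies at chr9:56712911-56747677, plus strand. It had 9, 11 and 0 counts at T0, 10, 16 and 25 at T1, 15 to 24 at T2 and, at T3, 31 and 21. These counts are small, but the T0 libraries were all below those of T1, T2 and T3, at 0.481 ± 0.419 CPM against 2.43 ± 0.238 CPM at T3. The log2 difference was 1.31 at T1 (SE 0.77, adjusted p = 0.226), 1.76 at T2 (SE 0.69, adjusted p = 0.0675) and 2.33 at T3 (SE 0.95, adjusted p = 0.190). Leaving out T0 replicate 3, which had no count, gave 0.75 (adjusted p = 0.136), 1.17 (0.0334) and 1.76 (0.0328). Cspg4 passed the count filter against T0 only through its counts at the later time points, so these calls are partly set by the filter.

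Pdgfra encodes the receptor through which PDGF-AA keeps precursors dividing, and lies at chr5:75548316-75594229, plus strand. Its counts were 401, 390 and 52 at T0, 1775, 2587 and 1465 at T1, 1657, 1736, 2065 and 2339 at T2, and 2729 and 627 at T3. In CPM it was 30.1, 27.2 and 3.67 at T0, and no later library was below 67.5. The T1 and T2 means were 145 ± 52.4 and 163 ± 18.4 CPM, and the T3 libraries were far apart at 229 and 67.5 CPM. Pdgfra was higher than at T0 by 2.83 on the log2 scale at T1 (SE 0.70, adjusted p = 0.0226) and by 3.02 at T2 (SE 0.58, adjusted p = 0.00392). The T3 difference of 2.88 (SE 0.89, adjusted p = 0.112) did not pass. The T2 call held under every alternative that was run, with the adjusted p at most 0.0333. The T1 call was lost without T1 replicate 1 (adjusted p = 0.0717) or T1 replicate 2 (0.0843). Without T0 replicate 3 the differences were 2.34, 2.52 and 2.39, and all 3 passed (adjusted p = 0.000236, 1.1e-06 and 0.0475).

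Among genes that mark the committed stage, Gpr17 and Bcas1 did not share a course. Gpr17, the orphan receptor of that transient stage, lies at chr18:32102651-32109290 on the minus strand, inside the gene Lims2 on the other strand. It had 1372, 1479 and 13 counts at T0, 6841, 9961 and 5189 at T1, 6555, 4561, 8330 and 6912 at T2, and 16231 and 2525 at T3. At T0 this was 103, 103 and 0.917 CPM, against a lowest later library of 272 CPM. T0 did not overlap with any later time point, although T0 replicate 3 was far below the other T0 libraries and the T3 libraries were apart at 1359 and 272 CPM. Gpr17 was higher than at T0 by 3.03 at T2 (SE 1.05, adjusted p = 0.0448), while the T1 difference of 2.99 (SE 1.2, adjusted p = 0.0966) and the T3 difference of 3.57 (SE 1.52, adjusted p = 0.204) did not pass. The T2 call was lost when any of T0 replicates 1 and 2 or T2 replicates 1 to 4 was left out (adjusted p = 0.0657 to 0.0944). Leaving out T0 replicate 3 gave differences of 2.41, 2.45 and 3.00, with adjusted p of 0.000291, 3.7e-05 and 0.0515. Exons of Gpr17 and Lims2 share 188 bases, and the strand setting of the counting is not given in the sources used here. Lims2 had 2 to 559 counts, at Pearson r = 0.98 with Gpr17 over the 12 libraries on log2 CPM. It was at most 46.8 CPM, so the 2 genes cannot be fully told apart here, but reads assigned to Gpr17 were far more numerous.

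Bcas1, a protein of early myelinating cells, lies at chr2:170172491-170253345 on the minus strand. Its CPM were 250, 239 and 260 at T0, 289, 284 and 302 at T1, 267 to 292 at T2 and, at T3, 286 and 261. The log2 difference from T0 was 0.22 at T1 (SE 0.10, adjusted p = 0.138), 0.15 at T2 (SE 0.09, adjusted p = 0.220) and 0.15 at T3 (SE 0.15, adjusted p = 0.555). The T1 difference was 0.26 with an adjusted p of 0.0242 when T0 replicate 3 was left out, and those at T2 and T3 did not pass. Exons of Bcas1 overlap those of 1700040N02Rik, which had 17 to 73 counts, and of Gm14259 on the other strand.

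Cnp encodes a phosphodiesterase of the myelin membrane that is made early in differentiation, and lies at chr11:100436218-100453043, plus strand. Its CPM were 337, 358 and 184 at T0, 464, 404 and 497 at T1, 313 to 383 at T2 and, at T3, 371 and 325. T1 held the highest values, and the T0, T2 and T3 libraries overlapped. The log2 difference from T0 was 0.63 at T1 (SE 0.25, adjusted p = 0.0967), 0.27 at T2 (SE 0.22, adjusted p = 0.344) and 0.26 at T3 (SE 0.31, adjusted p = 0.628). When T0 replicate 3 was left out the T1 difference was 0.39, with an adjusted p of 0.0138, and those at T2 and T3 were 0.02 and 0.02. Cnp shares 154 exon bases with Dnajc7 on the other strand, and r between them was 0.20 over the 12 libraries.

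Mog encodes a glycoprotein of the outer myelin surface that appears late in maturation, and lies at chr17:37147691-37160343 on the minus strand. It had 3, 8 and 0 counts at T0, 11, 14 and 9 at T1, 31, 31, 21 and 22 at T2, and 23 and 3 at T3. T2 was the highest group at 2.27 ± 0.777 CPM, with every library above every T0 library (0.261 ± 0.281 CPM) and T1 library (0.848 ± 0.263 CPM). Mog passed the count filter against T0 only at T2, where its own T2 counts carried it through, so that its call there is partly set by the filter. The fitted difference was 3.07 (SE 0.69, adjusted p = 0.00796), 3.04 with no filter on low counts (adjusted p = 0.00587) and 2.47 without T0 replicate 3 (adjusted p = 0.00298). At this depth Mog remained under 1 FPKM in all 12 libraries.

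**Figure D2:**
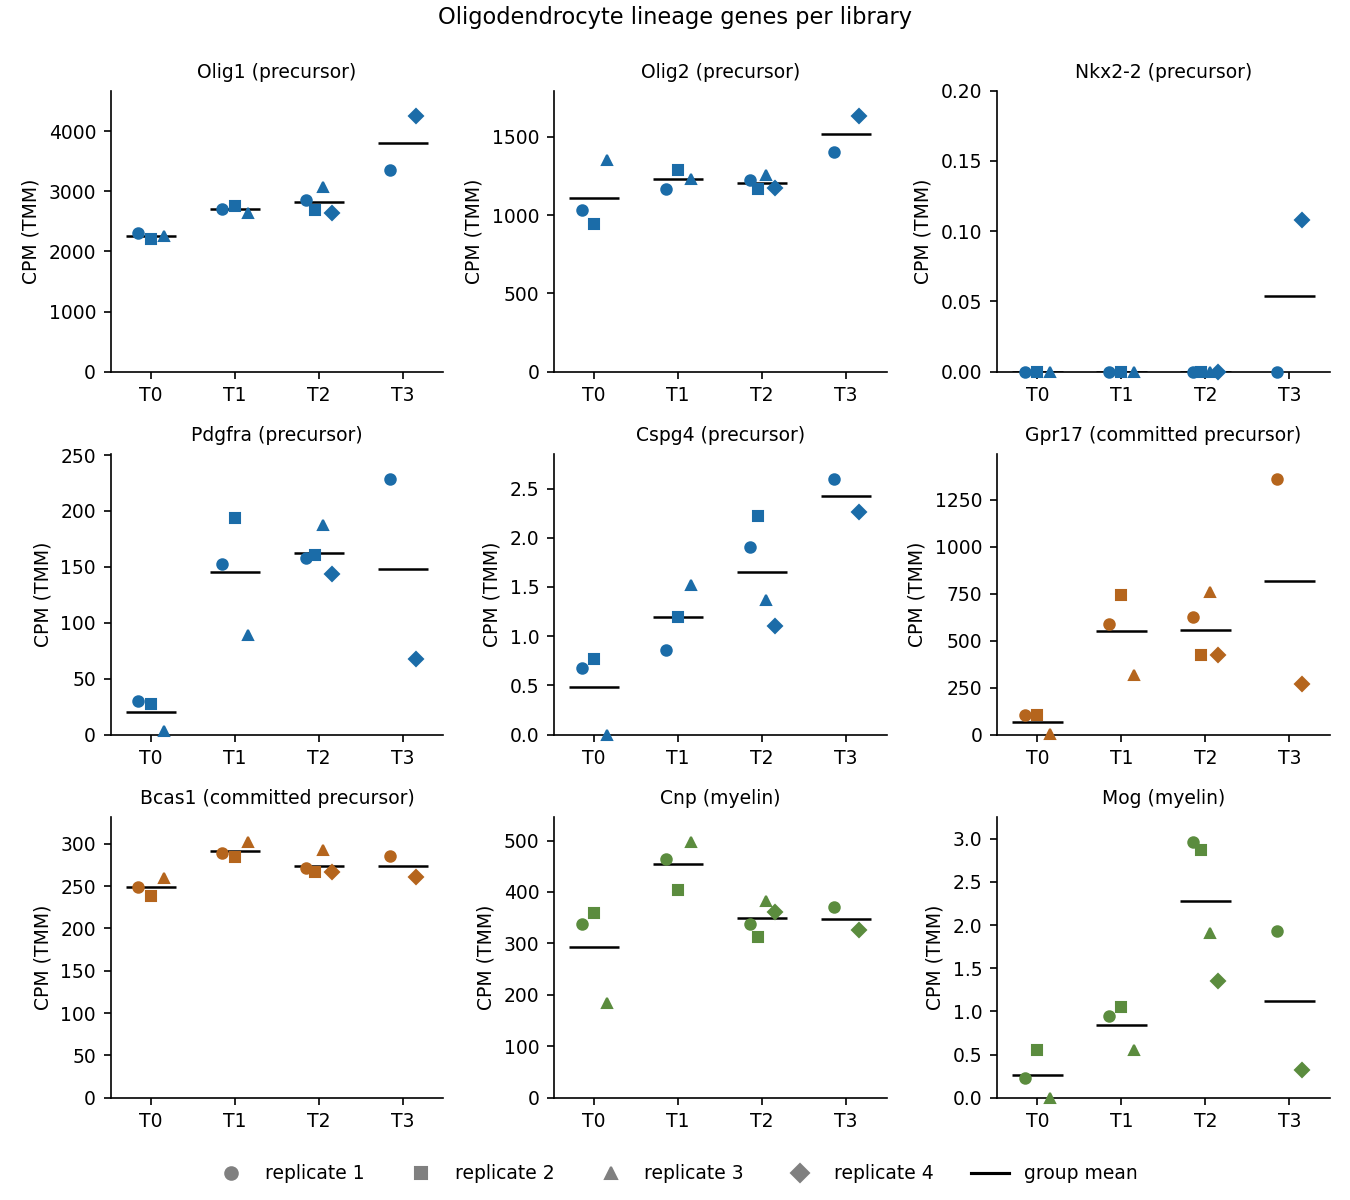
CPM of each of the 9 genes by time point, with 1 point per library, shapes for replicate numbers, bars for group means and colors for stage. Olig1 and Olig2 vary little within T1 and T2, while T0 replicate 3 (triangle) lies at or near 0 for Pdgfra, Cspg4, Gpr17 and Mog, and the T3 libraries are far apart for Pdgfra, Gpr17 and Mog.

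The first comparison asked what changed within 2 days of medium D1. Pdgfra was the 1 of 7 tested genes called higher, and none was lower, where 15.1% of the 12364 genes tested rose and 16.8% fell. All 7 had a fitted difference above 0, 3 were higher at an unadjusted p under 0.05, and DESeq2 called 2, Pdgfra and Olig1. The T1 and T0 libraries did not overlap, with T1 higher, for 6 of the 7, against 28.6% of all genes tested. Cspg4, among these 6, was tested only for its counts at T1. Without T0 replicate 3, 6 were called higher, namely Olig1, Olig2, Pdgfra, Gpr17, Bcas1 and Cnp, against 25.2% of all genes. Leaving out T1 replicate 1 or T1 replicate 2 left 0 by edgeR, against 6.68% and 6.47% of all genes.

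At 2 days of medium B, 4 of the 8 tested genes were higher than at T0: Olig1, Pdgfra, Gpr17 and Mog, the last of which was tested only for its counts at T2. The share over all 12607 genes tested was 21.4% higher and 21.8% lower. None was lower, also at an unadjusted p under 0.05 and by DESeq2. DESeq2 called Cspg4 higher as well. The libraries did not overlap for 6 of the 8, all higher at T2, against 27% of all genes. Cspg4, like Mog, was tested only for its counts at T2, and both are among the 6 that did not overlap. Without T0 replicate 3 the count of genes called higher was 6, with Olig2 and Cspg4 added, against 26.7% of all genes. It was 2, Pdgfra and Mog, when any other single library was left out, against 16% to 19.2% of all genes.

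At 10 days of medium B, edgeR called 0 of the 7 tested genes in either direction, where 3.31% of the 12721 genes tested were higher and 1.41% lower. At an unadjusted p under 0.05, 3 were higher and 0 lower, and DESeq2 called 1 higher, Olig1 (adjusted p = 0.00399). The libraries of 6 of the 7 lay above T0, against 24.3% of all genes. Without T0 replicate 3, Olig1, Olig2, Pdgfra and Cspg4 were called higher, against 9.94% of all genes. Cspg4 is in both of these counts and was tested only for its counts at T3. All 3 comparisons above use the same T0 libraries and are therefore not independent of each other.

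**Figure D3:**
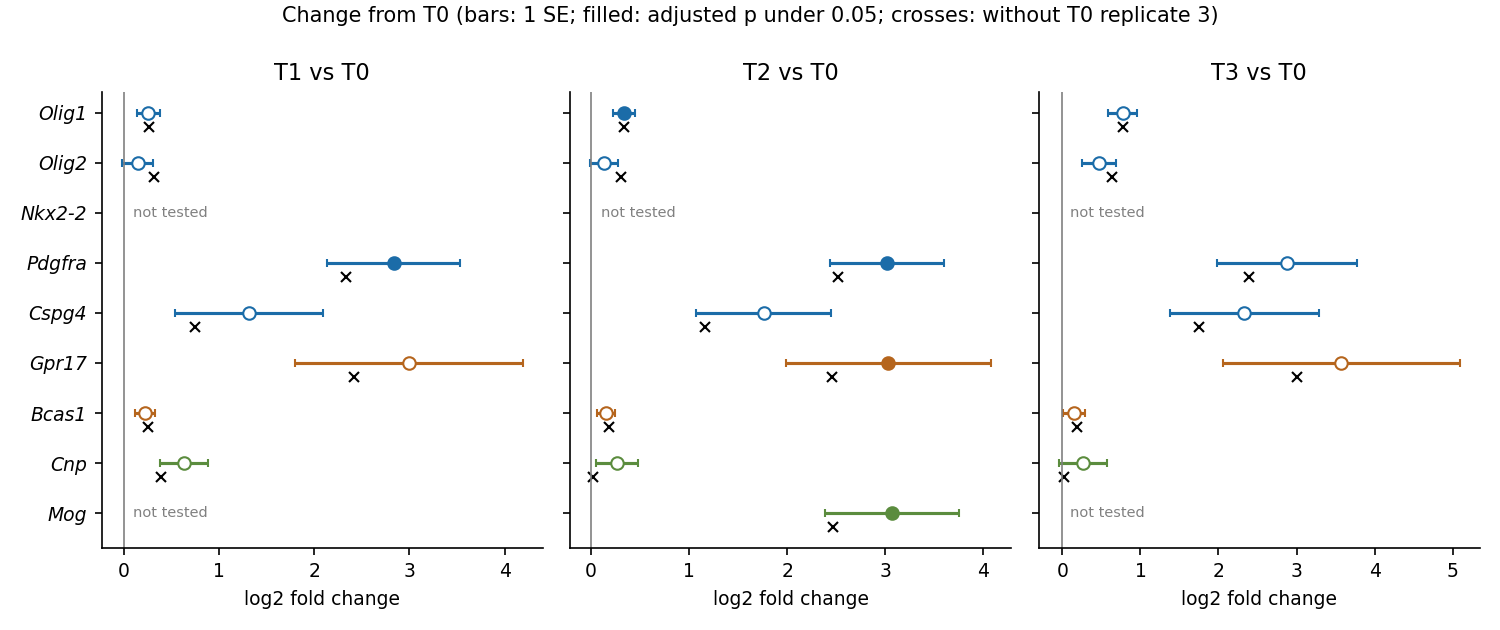
Log2 fold change of each gene from T0 to T1, T2 and T3, with bars of 1 SE, filled points where the edgeR adjusted p was under 0.05, and crosses for the same fit without T0 replicate 3. The points of Pdgfra and Gpr17 lie between 2.83 and 3.57 with wide bars, while those of Bcas1 lie between 0.15 and 0.22.

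From T1 to T2, edgeR called 0 of 8 tested genes, where 0.573% of the 12382 genes tested were higher and 0.0565% lower. At an unadjusted p under 0.05, 1 was lower and 1 higher, and DESeq2 called Cnp lower. Cnp was 0.37 lower (SE 0.10, adjusted p = 0.140) and Mog 1.42 higher (SE 0.38, adjusted p = 0.151), and these were the 2 genes whose libraries did not overlap, against 6.4% of all genes separated upwards and 5.85% downwards. Libraries of the same number at T1 and T2 deviated together. With the replicate number as a block both passed, in a fit that leaves out T2 replicate 4, the T2 library lowest in Mog (1.35 CPM). There Cnp fell by 0.39 on the log2 scale (edgeR adjusted p = 0.0317) and Mog was 1.62 higher (adjusted p = 0.045). In that fit 1.32% of all genes were higher and 0.383% lower. Of all alternatives for this step, Cnp passed in 2 of 17 and Mog in 1 of 16. Both are myelin genes, and they went in opposite directions over this step. The differences of the other 6 were 0.07 for Olig1, -0.02 for Olig2, 0.17 for Pdgfra, 0.42 for Cspg4, 0.03 for Gpr17 and -0.08 for Bcas1, and Nkx2-2 was not tested.

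From T2 to T3, edgeR called 0 of 8, where 0.5% of the 12599 genes tested were higher and 0.691% lower. At an unadjusted p under 0.05, 2 were higher and 0 lower, and DESeq2 called Olig1. The T3 libraries lay above all T2 libraries for Olig1, Olig2 and Cspg4, against 13.6% of all genes, with differences of 0.43 (SE 0.14, adjusted p = 0.170), 0.33 (SE 0.12, adjusted p = 0.199) and 0.58. Mog was 0.93 lower, with T3 libraries at 1.93 and 0.323 CPM. Gpr17 differed by 0.54 (SE 0.51, adjusted p = 0.664), Pdgfra by -0.14, Bcas1 by -0.01 and Cnp by -0.01, and Nkx2-2 was not tested. With T3 represented by replicate 4 alone, Olig1 was called higher (0.60, adjusted p = 0.0373) and Pdgfra lower (-1.26, adjusted p = 0.00412), where 6.46% of all genes were higher and 4% lower in a fit that takes the lone library to vary like the T2 libraries.

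Gpr17 and Pdgfra differed widely between libraries of one time point. In T0 replicate 3, Gpr17 was 112-fold and Pdgfra 7.81-fold below the mean of T0 replicates 1 and 2. Of 12952 genes, 0.0154% differed as far as Gpr17 on the log2 scale and 0.957% as far as Pdgfra. Cnp was 1.89-fold lower there, while Olig1 differed by 0.01 and Bcas1 by 0.09 on the log2 scale, and Olig2 was 0.45 higher. In T3 replicate 4, Gpr17 was 5.00-fold and Pdgfra 3.39-fold below T3 replicate 1, and 0.425% and 1.61% of genes differed as far. Olig1 and Olig2 were 0.34 and 0.22 log2 units higher in that same library. Some other genes of the lineage were also low in T0 replicate 3: the log2 difference was -5.33 for Lhfpl3, -4.26 for Tnr, -4.21 for Omg and -4.01 for Gjc3. Others were higher there, by 0.72 for Rras2, 0.65 for Epn2 and 0.49 for Fyn.

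**Figure D4:**
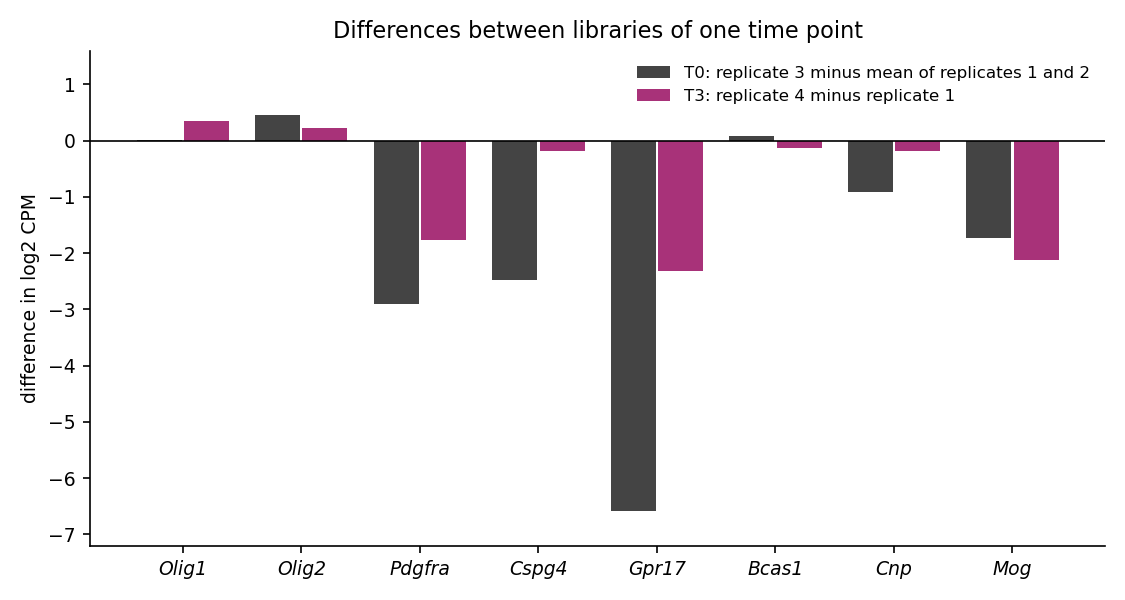
Difference in log2 CPM (prior count 2) between libraries of one time point for 8 of the genes, dark bars for T0 replicate 3 minus the mean of T0 replicates 1 and 2 and red bars for T3 replicate 4 minus T3 replicate 1. Gpr17, Pdgfra and Mog are lower in both, Mog on at most 23 counts a library, and the bars of Olig1, Olig2 and Bcas1 stay within 0.5 of 0.

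Other genes of the lineage were read from lists chosen with results of these data known. Of 17 other precursor genes, 13 were tested at T1 and 6 rose (median log2 change 0.52, against -0.01 over all genes). At T2, 6 of 13 rose with a median of 0.71, and at T3, 3 of 15 with a median of 0.70. By edgeR 0 fell at each of these time points, with 1, 0 and 2 lower at an unadjusted p under 0.05 and 2, 2 and 1 by DESeq2. Without T0 replicate 3, 7, 6 and 6 rose and 4, 3 and 3 fell, where 25.2%, 26.7% and 9.94% of all genes rose and 24.9%, 25.3% and 8.49% fell, shares that also stand behind the counts without that library below. Pcdh15, a protocadherin enriched in precursors, had 0.295 CPM at T0, and 11.5, 35.8 and 26.7 CPM at the later time points, a log2 change of 5.26, 6.92 and 6.50 (adjusted p = 0.00195, 7.53e-05 and 0.032). Pcdh15 had at most 9 counts a library at T0 and was tested only for its later counts, so its calls are partly set by the filter. Lhfpl3 rose by 3.92 at T1 and 4.43 at T2, and Lnx1 by 1.43, 2.10 and 2.63. Tnr, which encodes an extracellular matrix glycoprotein, rose by 2.18 at T2 (adjusted p = 0.0461), and Ptprz1, a receptor phosphatase, by 0.77 at T1 and 0.71 at T2. Dll3, a Notch ligand, rose by 1.82 from T0 to T3 and by 1.56 from T2 to T3, and Neu4 by 2.34 from T2 to T3. The calls of Pcdh15 and Lnx1 at T1 and T2 and of Lhfpl3 and Ptprz1 at T2 held with any single library left out. The others did not: the adjusted p reached 0.0765 for Lhfpl3 and 0.106 for Ptprz1 at T1, 0.11 for Tnr at T2, and 0.222, 0.153 and 0.286 for Pcdh15, Lnx1 and Dll3 at T3 against T0. From T2 to T3 it reached 0.107 for Dll3 and 0.159 for Neu4.

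Sox10, a factor central to the lineage, was close to absent. It had 3.38, 2.65 and 0.705 CPM at T0 and 0.108 to 0.669 CPM in all later libraries, and its T0 to T1 change was not tested for low counts. Its relative Sox8 had 210 to 492 CPM over the 12 libraries. Matn4 and Olig3 had at most 1 count in every library. Ncan had 657 to 2873 CPM, both at T0, where its mean was 2077 CPM, and means of 1510, 1309 and 1440 CPM at T1, T2 and T3. Of the precursor genes, then, Olig1, Olig2, Sox8, Ptprz1 and Ncan were among the abundant ones. Pdgfra and Pcdh15 rose from low levels, and Nkx2-2, Cspg4 and Sox10 were at or near the floor.

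Of 16 other committed precursor genes, 12 were tested at T1, where 5 rose and 1 fell (median 0.47). At T2, 6 of 12 rose (median 0.43), and at T3, 1 of 13 (median 0.44). With T0 replicate 3 left out, 8, 8 and 3 rose and 4, 2 and 1 fell. Nfasc, which encodes neurofascin of nodes and paranodes and is also a neuronal gene, went from 0.338 CPM at T0 to 1.68, 10.9 and 126 CPM. Its log2 change was 2.30, 5.00 and 8.53 against T0, and it rose again from T1 to T2 by 2.67 and from T2 to T3 by 3.53 (adjusted p = 6.21e-05). Nfasc had at most 7 counts a library at T0 and was tested against T0 only for its later counts, so those calls are partly set by the filter. Cyfip2 rose by 2.18 at T1 and 2.76 at T2, and Sirt2, a deacetylase of myelinating cells, by 1.01 and 0.98. Tns3 fell by 0.51 at T1. The T1 calls of Nfasc, Cyfip2 and Tns3 and the T3 call of Nfasc against T0 were lost with some library left out (adjusted p up to 0.0606, 0.139, 0.0976 and 0.0977), and the other calls given for these genes held with any single library left out. Bmp4, Nkx6-2 and Zfp488 had at most 1 count in every library.

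Of 23 other myelin genes, 10 passed the count filter at T1 and 11 at T2 and T3. At T1, Gsn rose by 1.42 and Car2 fell by 1.27 (median 0.47). At T2, 4 rose and 1 fell (median 1.27): Fa2h by 3.13, Omg by 3.12, Gsn by 1.66 and Opalin by at least 3.86-fold, while Car2 fell by 1.29. Opalin had 0 counts at T0 and Fa2h at most 10 a library. Both were tested only for their counts at T2, so they add little to that count. At T3, Car2 fell by 1.52 (median 1.23). Its T3 call and the T1 call of Gsn were lost with some library left out (adjusted p up to 0.153 and 0.114). When T0 replicate 3 was left out, 4, 6 and 3 rose and 2, 1 and 1 fell. Of the structural genes, both named here stayed low: Mbp, myelin basic protein, had 0.0705 to 1.05 CPM and Mobp at most 0.553 CPM. Mag, Cldn11, Gal3st1 and Ermn had at most 3 counts in every library.

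**Figure D5:**
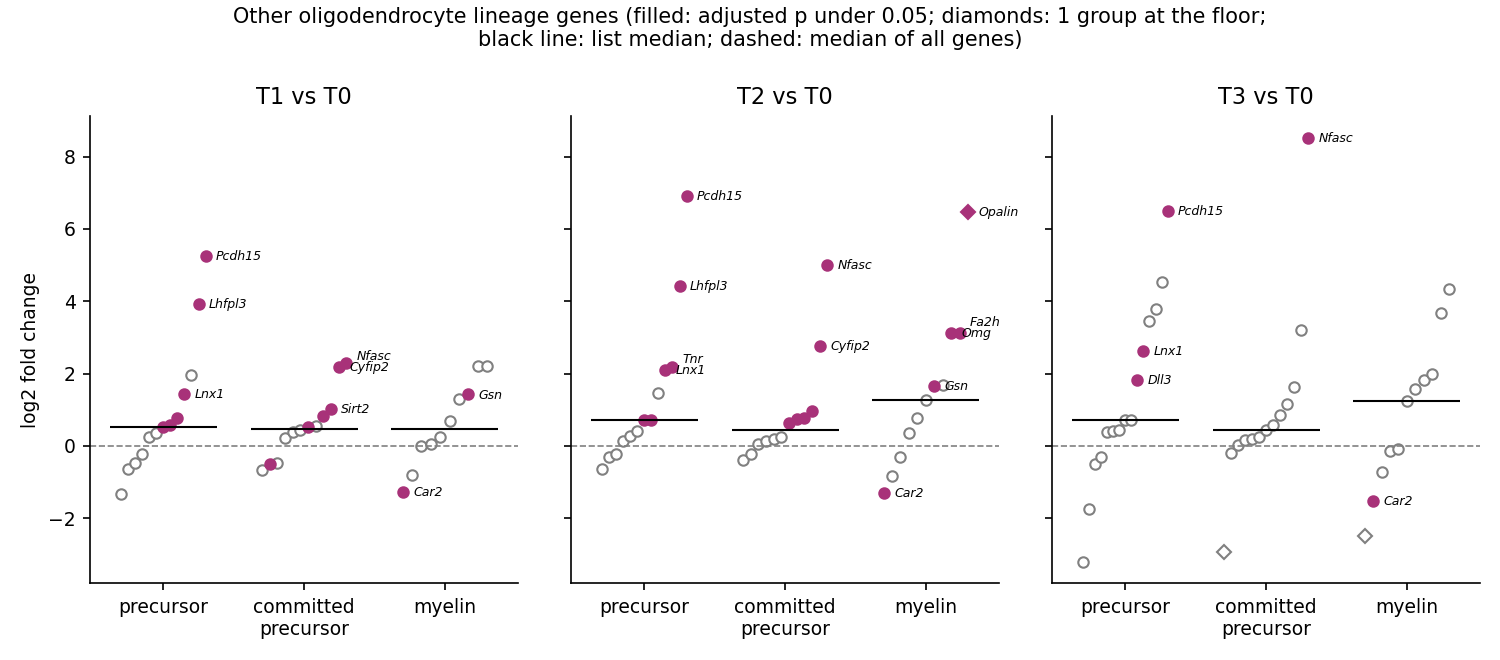
Log2 fold change of the tested genes of 3 lists of other lineage genes from T0 to T1, T2 and T3, filled where the edgeR adjusted p was under 0.05 and drawn as diamonds where 1 group was at the floor of 3 counts a library. Pcdh15 and Nfasc lie highest among genes not at the floor at T2 and T3, and Car2 is filled below 0 at each time point.

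Of 6 PDGF genes other than Pdgfra, 3 were tested against T0. Pdgfa, the ligand of the receptor, had 10.1, 8.37 and 16.4 CPM at T0 and 15.3 to 21.6 at T2, with a difference of 0.70 (adjusted p = 0.0485) that passed in 5 of 17 alternatives and in 1 of 7 fits with a library left out, that without T0 replicate 3. Pdgfrl was 1.73 lower at T1 (adjusted p = 0.0282, up to 0.101 with a library left out), where it was tested only for its T0 counts. At T3 edgeR called 0, with 1 higher at an unadjusted p under 0.05 and 1 by DESeq2. In the fits that leave out T0 replicate 3, 1 was higher at each time point and 1 lower at T1. Pdgfrb, the sister receptor typical of pericytes, had 0 counts in all 12 libraries, and Pdgfd at most 3. Of 7 genes that hold back oligodendrocyte differentiation, 6 were tested. Hes5, a Notch target, fell by 1.75 at T1 and 1.81 at T2, and Sox5 by 0.88 and 0.93, whereas Lingo1 rose by 2.00 and 1.79. Of these, only the T1 call of Hes5 was lost with a library left out (adjusted p up to 0.0613). Leaving out T0 replicate 3, 3 were higher and 3 lower at T1, and 2 and 2 at T2. At T3 edgeR called 0 of the 6, with 3 lower and 1 higher at an unadjusted p under 0.05, and the same counts were called without T0 replicate 3, where DESeq2 on all libraries gave 2 and 1.

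Markers of other cell types moved over the same comparisons. Of 8 neuron markers, 5, 7 and 4 rose at T1, T2 and T3, and their summed level was 900 to 972 CPM at T0, 2067 to 2617 at T1, 2049 to 2603 at T2 and 1710 to 2748 at T3. Most of that sum was Mtap2, with means of 900, 1903, 1773 and 1627 CPM at T0, T1, T2 and T3. Stmn2 had at most 1 count in every library, and Rbfox3 and Snap25 at most 34. At T0 Rbfox3 had at most 1 count and Snap25 at most 4, so they entered tests against T0 only through later counts. Doublecortin (Dcx) rose by 5.29, 6.06 and 6.22 and Gad1 by 3.75, 4.25 and 3.77, where both T3 calls were lost with some library left out (adjusted p up to 0.146 and 0.224). The neuron markers that rose without T0 replicate 3 numbered 5, 7 and 6. Of 9 astrocyte markers, 1 fell at T1 (Fgfr3), and 3 fell at T2 (Fgfr3, Aldh1l1 and Gja1). At T3 edgeR called 0, with 4 lower both at an unadjusted p under 0.05 and by DESeq2. The astrocyte markers that fell without T0 replicate 3 numbered 5, 5 and 7, and 0, 1 and 1 rose. The T1 call of Fgfr3 and the T2 calls of Aldh1l1 and Gja1 were lost with some library left out (adjusted p up to 0.16, 0.114 and 0.121). The summed level of astrocyte markers was 3013 to 5317 CPM at T0 and 2729 to 3041 at T3. Of 13 pericyte, endothelial and fibroblast markers, 8 had at most 3 counts in every library, Rgs5, Kcnj8, Cdh5 and Dcn among them, and the sum was 1.48 to 5.55 CPM. Vtn of that list was called higher at T1 and T2, by at least 6.47-fold and 11.4-fold. It had at most 1 count at T0, 1.28 to 1.55 CPM at T1 and 1.48 to 4.46 CPM at T2. It was tested only for those later counts. Without T0 replicate 3, 1 gene of the list was higher at T1 and at T2, and 1 was lower at T1. Of 8 microglia markers, 7 had at most 3 counts in every library, Cx3cr1, P2ry12 and Tmem119 among them, and without T0 replicate 3, 1 was higher at T2. Pdgfra and Cspg4 are also expressed by mural and fibroblast cells, and the part of such cells in their counts was not tested. The part of neuronal and astrocyte RNA in the changes of the lineage genes was not tested.

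The genes whose log2 CPM most resembled that of a lineage gene over the 12 libraries are given as a description, since the libraries share the same time points and the same T0 replicate 3. From 11523 candidates, Pdgfra was nearest to Caskin1 (Pearson r = 0.997), Pcdh10 (0.994) and Mcf2l (0.994). Gpr17 was nearest to Tcp11l2 (0.993), Trim9 (0.991) and Miat (0.988). For Olig1 they were Daglb (0.941), Ubl3 and Sod3, and for Olig2 Sgpp1 (0.917), Ythdf2 and Nat15. For Cnp they were BC017643 (0.966), Ldb1 and Catsper2, for Cspg4 A830010M20Rik (0.966), Kcnq3 and Srgap1, and for Mog Dock9 (0.966), Ankrd23 and Slitrk2. Pdgfra and Gpr17 had r = 0.97 with each other, and Olig1 and Olig2 had r = 0.81.

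Promoters were read for 6 of the 9 genes (Olig2, Nkx2-2, Pdgfra, Cspg4, Cnp and Mog) from RefSeq, build GRCm38.p6, which differs from the build of the counts, as the stretch from 250 bases before to 50 bases after each gene's start. Letters that basic helix-loop-helix and SOX proteins can bind were searched on both strands, and no match overlapped another. Of all 32851 promoters of that length, 16.3% held the E-box CAGCTG, 17.2% held the E-box CAGATG and 3.91% held the E-box CATATG. For the SOX proteins, 18.7% held the letters ACAAAG and 12.6% held the letters ACAATG. The windows below are shown because they set the promoter of Pdgfra, which rose, beside that of Nkx2-2, which was not detected, with the matches in Cnp and Olig2 for completeness. Each is written 5′ to 3′ on the strand of its gene, and capitals mark the match.
Pdgfra, chr5:75152059-75152084, plus strand, 182 bases before the start: caccccacccCATCTGgtttgctccc
Nkx2-2, chr2:147186607-147186632, minus strand, 220 bases before the start: cacaatttcaCATCTGcaaatactgt
Cnp, chr11:100574762-100574787, plus strand, 167 bases before the start: cttttaaggaACAAAGaggtggcgtg
Olig2, chr16:91225472-91225497, plus strand, 68 bases before the start: aggaaaagcaCATTGTtcccgccccc
The capitals of Pdgfra and Nkx2-2 read CAGATG on the other strand and those of Olig2 read ACAATG. The promoters of Pdgfra and Nkx2-2 thus held the same letters, and the promoters of Cspg4 and Mog held none of these letters. A match is a run of letters and not a measured binding site.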

How the data were processed

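RNA was extracted with Trizol and polyA libraries were made with the TruSeq RNA v2 kit, which does not mark strand. Per the labels and methods, the authors aligned reads with TopHat2 2.0.6 and Bowtie 0.12.7.0 to mouse mm9. The deposited counts are raw whole counts per gene, with HTSeq 0.6.0 named in the processing notes. The deposited FPKM table holds 1 column per library, and the tool behind it is not given in the sources used here. Entries that name no gene held 43.1 to 48.1% of each count table and were left out.

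Counts were fitted for each pair of time points with the edgeR 4.0.16 quasi-likelihood test in R 4.3.3 (TMM, filterByExpr), with Benjamini-Hochberg adjustment over all genes tested and a threshold of 0.05. The fits were tested on simulated data. Each simulated library was drawn independently, with none set apart as T0 replicate 3 is, so the simulation cannot show how the fits handle such a library. Alternatives were DESeq2 1.42.0, limma 3.58.1 on log2(FPKM + 1), where fold changes of low genes are understated, other filters and scalings, and left-out libraries. Of the replicate numbers, which the labels tie to no shared animal or day, those of T1 and T2 deviated together (r = 0.199, 0.341 and 0.166 across genes), so the block is given there. The rule for named genes takes the 9 genes in each comparison, and from other lists the 3 largest called changes each way and genes at the floor. The 9 genes and all lists were chosen with earlier results of these data known. Gene positions are from GENCODE on NCBIM37. Some genes that the rule for named genes gives are not reported here.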

Additional observations from a re-analysis of the deposited data

How the results depend on the processing

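The results were computed under other tools, scalings and filters and with libraries left out. Of the 9 genes, DESeq2 called 2 higher at T1, 5 at T2 and 1 at T3 against T0, 1 lower from T1 to T2 and 1 higher from T2 to T3, and one fit of all 12 libraries called 3 higher at T1 and 5 at T3. Over all genes, DESeq2 called 16.8%, 21.4% and 7.94% higher at T1, T2 and T3, and one fit of all libraries 21.2% at T1 and 15.4% at T3. DESeq2 called 0.522% of all genes lower from T1 to T2 and 3.29% higher from T2 to T3. On FPKM values with a pseudocount of 1 or 0.1, 2 were higher at T2, against 11.8% and 11.7% of all genes. With libraries numbered 1 and 2 alone, 7 were higher at T1, against 29.9% of all genes. With a single library left out, the count of genes called higher ran from 0 to 6 at T1 and from 2 to 6 at T2. At T3 against T0 it ran from 0 to 4, with each T3 library kept. The shares over all genes in these fits were 6.47% to 25.2%, 16% to 26.7% and 0.104% to 9.94%. The highest counts were those without T0 replicate 3.

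With the replicate number as a block, 2 genes were higher at T2 than at T0, against 12.3% of all genes. From T1 to T2, 1 was lower and 1 higher, against 0.383% and 1.32% of all genes. Both of these fits leave out T2 replicate 4, whose number has no partner at T0 or T1. The numbers of T0 did not deviate together with those of T1 (r = -0.018, 0.121 and 0.0658) or T2 (-0.0641, 0.0154 and -0.152). Those of T2 and T3 gave mixed values (-0.0153 and 0.258). T0 and T3 share 1 number, replicate 1, with r = 0.403, and no block could be fitted there.

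The direction turned in results that were not called. On FPKM with pseudocounts of 1 and 0.1, Cnp was at -0.00626 and -0.00596 from T0 to T2 and -0.0584 and -0.0587 from T0 to T3, and from T1 to T2 Olig1 was at -0.0361 and -0.0362 and Gpr17 at -0.0320 and -0.0319. With libraries numbered 1 and 2, Cnp was at -0.0833 from T0 to T2, and from T1 to T2 Pdgfra was at -0.104 and Gpr17 at -0.331. Bcas1 was at 0.00922 from T2 to T3 with the block. Single libraries left out moved the T1 to T2 change of Olig2 between -0.0575 and 0.0182, of Pdgfra between -0.0796 and 0.439 and of Gpr17 between -0.246 and 0.313. From T2 to T3 they moved Pdgfra between -1.26 and 0.476, Gpr17 between -1.03 and 1.27, Bcas1 between -0.0685 and 0.0458 and Cnp between -0.0966 and 0.0737. The cause was not tested. Depth limits Nkx2-2, Cspg4 and Mog, with at most 1, 31 and 31 counts a library.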
